A study of Mus musculus with 6 samples.

Results

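Gene expression was compared between a pair of Clk/Clk cultures of MEFs (fibroblasts grown from mouse embryos, a standard model of connective tissue cells): a mock culture and a culture transfected with a vector that expressed H-Ras and SV40T. Both arrays were chosen by their titles, which give the genotype and the transfection, and they are 2 of the 6 arrays of the study. The other 4 arrays held the same mock and H-Ras/SV40T cultures of wild-type and Per2m/m MEFs, and all 6 cultures were of the ICR strain and were kept in the same serum-containing medium. The series design describes the Clk/Clk cells as mutant in Clock, and the labels do not give the lesion, the species or form of the H-Ras, the promoter of the vector, the time after transfection, or whether a culture was a clone or a pool. What the mock culture received is likewise known only as "mock". Each group held 1 array, so no difference between cultures could be set against a spread between replicates, and no test was made of any gene or gene group.

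CLOCK pairs with BMAL1, and the dimer activates genes that carry an E-box, among them the Per and Cry genes, whose products then repress it. RAS proteins pass growth signals to the MAP kinase cascade, which drives immediate early genes and their feedback inhibitors. The large T antigen of SV40 binds the p53 and RB tumour suppressors, and RB otherwise holds back the E2F factors that turn on genes of DNA synthesis.

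Total RNA was measured on single-colour Agilent arrays with 59305 spots each that were not controls. On the mock array 55.0% of spots were well above background, and on the transfected array 53.5%, against 49.3% to 57.3% over the 6 arrays. Both arrays had nearly the same scale, with a 75th percentile of the processed signal of 380 on the mock array and 377 on the transfected array. A level is the log2 processed signal minus that percentile of its array, and the response is the level on the transfected array minus the level on the mock array. Of 22264 named genes, 14939 were measured, which means that the brighter of both arrays was well above background, and 13946 of them were well above background on both. The remaining genes were well above background only on the transfected array (407 genes) or only on the mock array (586 genes), and for these a fold is given as a bound against the lowest signal that counted as above background. Repeat spots of a probe gave a spread of 0.084 for a response, which covers spot noise only. Precision is limited by there being 1 array per culture.

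The altered genes and the gene of the series' title were read first. Clock had a level of -0.30 in the mock culture and -0.05 after transfection, a response of 0.24. Its probe lies on chromosome 5 at 76641377 to 76641436 (mm9), at position 7243 of its transcript, and a level there does not check the genotype. Per2, a repressor of CLOCK, had low levels on both arrays, -3.91 and -3.88. The lowest levels that counted as above background were -4.62 on the mock array and -4.47 on the transfected array. Hras stood at 3.23 in the mock culture and 3.86 after transfection, 1.55-fold higher, on a probe at position 667 of the mouse transcript (chromosome 7, 148377296 to 148377355, mm9). A second, dimmer Hras probe had a response of 1.18. The same Hras probe gave -0.17 in the wild-type pair and -1.33 in the Per2m/m pair, and nothing in the labels says whether it detects the transgene. Aldh3a1, the aldehyde dehydrogenase named in the title of the series, had levels of 0.89 and 1.01, a response of 0.12 that lay near the centre of all genes (probe on chromosome 11, 61031857 to 61031916, mm9), against -0.63 in the wild-type pair and 4.63 in the Per2m/m pair.

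Most genes had nearly the same level in both Clk/Clk cultures. The median response was 0.00 with quartiles of -0.27 and 0.28, and 91.2% of measured genes differed by less than 2-fold. Of the 14939 genes, 628 (4.2%) were higher by at least 2-fold and 689 (4.61%) lower after transfection, together 8.82%. These shares of all genes are the ones beside which the count of each list below is to be read. Where a gene dim on 1 array is counted at its bound, 483 were higher and 544 lower. At 4-fold the counts were 159 higher and 147 lower, and at 8-fold 51 and 47. The genes nearest to the 2-fold limit were Akr1c18 just inside it at 1.99977-fold and F8 just past it at 2.0001-fold.

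**Figure D1:**
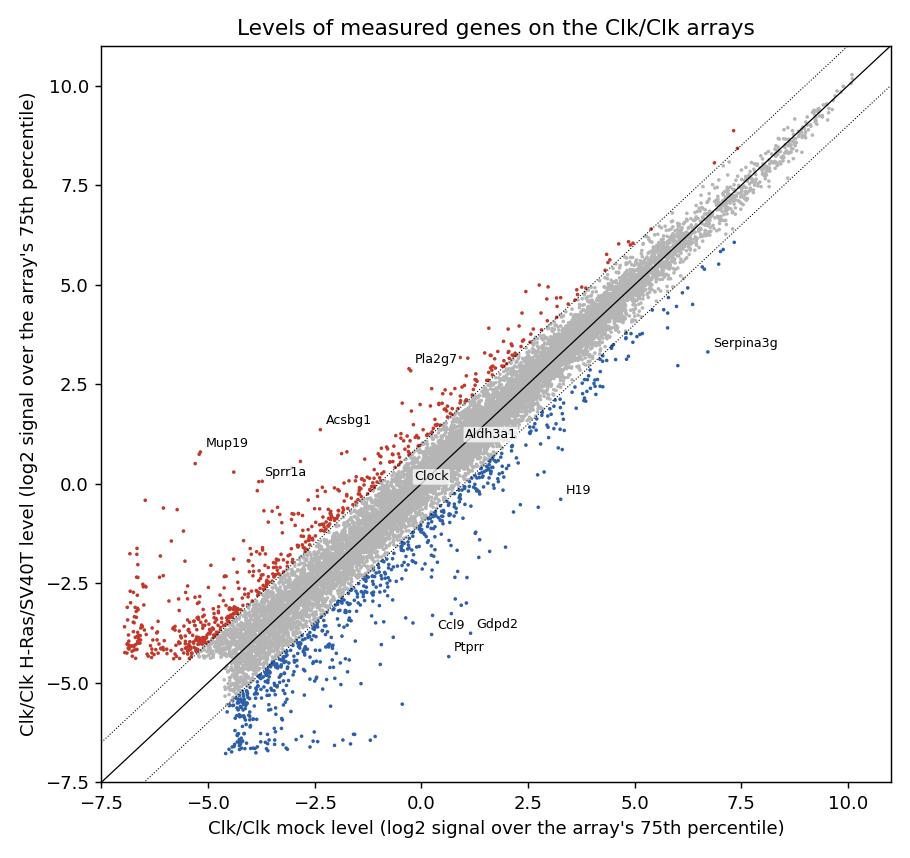
Level of every measured gene on the Clk/Clk mock array (horizontal axis) and on the Clk/Clk H-Ras/SV40T array (vertical axis), both as log2 signal over the array's 75th percentile, with 1 point a gene. The solid line marks equal levels and the dotted lines 2-fold; red points are the 628 genes at least 2-fold higher after transfection, blue points the 689 genes at least 2-fold lower, and grey points the 91.2% between them.

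Among genes well above background on both arrays, the largest increases included secreted proteins and enzymes. Sprr1a, a precursor protein of the cornified envelope of skin, had a level of -3.81 in the mock culture and 0.05 after transfection, 14.5-fold higher. Acsbg1, an acyl-CoA synthetase, went from -2.37 to 1.36, 13.2-fold higher. Slpi, a secreted protease inhibitor, was 12.7-fold higher with -3.85 and -0.18. Pla2g7, which degrades platelet-activating factor, had the higher starting level of -0.29 and reached 2.89, 9.05-fold higher. C1qtnf3 was 8.50-fold higher (-0.25 and 2.84) and the collagenase Mmp13 8.06-fold higher (-3.69 and -0.68). Vgf, a neuropeptide precursor, had a response of 2.81, and the protocadherin Pcdh20 was 6.86-fold higher. Ceacam2 was 6.67-fold higher, from a mock level of -4.17 that was near the lowest counted as above background. The mechanically gated channel Piezo2 was 6.17-fold higher, the protease Klk8 6.17-fold and Gpr1, a receptor of chemerin, 5.84-fold. Apoc1 and Trf, also among the 15 highest genes, are described with the liver-typical genes.

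The largest decreases were as large or larger and began from high levels. Gdpd2, a glycerophosphodiester phosphodiesterase, stood at 1.15 in the mock culture and -3.76 after transfection, 30.1-fold lower. The pheromone receptor Vmn1r65 was 16.6-fold lower from a mock level of 1.06, the chemokine Ccl9 16.3-fold lower (0.24 and -3.79) and the protease inhibitor Serpina3n 15.9-fold lower (0.94 and -3.05). Cbr2, a carbonyl reductase abundant in lung, was 15.6-fold lower, and Cyp2f2, a cytochrome P450 of lung and liver, 11.9-fold lower, from mock levels of 0.71 and 0.26 to -3.26 and -3.31. H19, an imprinted RNA that does not code for protein, had a level of 3.27 in the mock culture and -0.39 after transfection, 12.6-fold lower. All 6 measured probes of H19 were lower, with responses from -3.66 to -3.02. Serpina3g was 10.6-fold lower although it remained bright, at 6.72 and 3.31. Igfbp3, a carrier of insulin-like growth factors, was 10.1-fold lower (2.74 and -0.59) and the receptor Notch3 10.8-fold lower (1.07 and -2.36). Unc93a (12.9-fold), the Ly49 receptor Klra4 (11.9-fold), the cysteine dioxygenase Cdo1 (9.87-fold), Clec2d (9.86-fold) and the metalloreductase Steap4 (9.19-fold) complete the 15 lowest genes.

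Genes seen on 1 array only gave further large differences. The phosphatase gene Ptprr had a level of 0.64 in the mock culture and was not well above background after transfection, which makes it at least 31.7-fold lower. In the same way the metalloprotease Adamts15 was at least 16.3-fold lower, Ifitm1, an interferon-induced membrane protein, at least 11.4-fold, Klra7 at least 10.5-fold, Vstm2a at least 9.68-fold, Cables1 at least 8.31-fold, Ctnna3 at least 7.50-fold, Folh1 at least 7.36-fold, Crisp3 at least 7.01-fold and Bend5 at least 6.68-fold. In the other direction Sprr2h, another cornified envelope gene, was not well above background in the mock culture and had a level of -0.42 after transfection, at least 18.5-fold higher. The other 9 of the 10 largest bounds in that direction were genes typical of liver. These bounds, and those of dim genes below, hold for the processed signal and depend on the background correction. With normexp and an offset of 50, which draws dim signals together, the response of Ptprr was -2.94, and those of Rspo1 and Brca1, named below, were -0.76 and 0.38, all smaller than their bounds.

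Different probes of a gene are the only repeat measure on these arrays apart from repeat spots, and they share the RNA. For 4095 genes with several probes above background on both arrays, the responses of the first 2 probes differed with an SD of 0.37. Of 147 such genes that were at least 2-fold different on the brightest probe, all probes had the same sign in 135 (91.8%) and all were past 2-fold in 73 (49.7%). At 4-fold, all probes had the same sign in 15 of 17 genes.

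Genes of DNA synthesis were nearly all somewhat higher in the transfected Clk/Clk culture. Of 43 measured genes of DNA replication, 42 had a response above 0, with a median of 0.78 against 0.00 over all genes, and 9 (20.9%) were at least 2-fold higher, against 4.2% of all genes, with 0 at least 2-fold lower. Cdc7, the kinase that fires replication origins, had a level of -4.04 in the mock culture and -1.94 after transfection, 4.30-fold higher, and a second probe of it gave 1.04 as a log2 response. Recql4, a helicase, was 2.49-fold higher (0.56 and 1.88), Chtf18, a subunit of a clamp loader, 2.25-fold (1.74 and 2.91), and Mcm2, a subunit of the replicative helicase, 2.23-fold (1.94 and 3.09). The other MCM subunits of the helicase, Mcm3, Mcm4, Mcm5, Mcm6 and Mcm7, had responses of 0.79, 0.95, 0.92, 0.85 and 0.74. Pcna, the sliding clamp, had 0.68. The exception was Gins3, with -0.38. Of 35 DNA repair genes, 34 were above 0 with a median of 0.59, and 5 (14.3%) were at least 2-fold higher. Palb2 was 2.25-fold higher, Clspn 2.16-fold, Rad51ap1 2.15-fold and Rad54l 2.03-fold, and Brca1, not well above background in the mock culture, at least 2.39-fold. Genes of folate and thymidylate metabolism, which supply nucleotides, had a median of 0.52, with 17 of 21 above 0. The folate carrier Slc19a1 was 2.02-fold higher, and thymidine kinase, Tk1, had a response of 0.75.

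Genes of mitosis were less far from 0. Their median was 0.40, 30 of 35 were above 0, and 0 were at least 2-fold higher. The motor Kif11 had the highest response, 0.97, followed by the transcription factor Foxm1 with 0.87 and the mitotic kinase Cdk1 with 0.83 (2.71 and 3.55). Cenpf was lower, at -3.62 in the mock culture and not well above background after transfection, at least 1.81-fold. In wild-type cells the mitosis median was 1.59 with 31 of 35 genes at least 2-fold higher, and in Per2m/m cells it was 0.56 with 6. The replication medians were 1.08 in the wild-type pair and 1.03 in the Per2m/m pair. No difference between genotypes was tested, since each has 1 array per side.

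The promoters of the replication genes were read for a sequence that some of the members hold. Promoters are RefSeq sequences of build GRCm38.p6, from 250 bases before to 50 bases after the gene start, and 33 of the 43 measured replication genes had one. An E2F-type motif, searched as TTTNNCGC on both strands, was found in 13 of the 33 (39.4%), in 7 of 26 repair promoters (26.9%) and in 2 of 29 mitosis promoters (6.90%). It was found in 9.04% of the promoters of measured genes and 5.93% of all promoters. A match is a description and not a binding site. The pair below are the promoters of Mcm5 (chr8:75109259-75109558, plus strand, response 0.92) and Mcm6 (chr1:128359656-128359955, minus strand, response 0.85), shown 5′ to 3′ in their gene's direction because each holds overlapping copies of the motif, which capitals mark.
Mcm5: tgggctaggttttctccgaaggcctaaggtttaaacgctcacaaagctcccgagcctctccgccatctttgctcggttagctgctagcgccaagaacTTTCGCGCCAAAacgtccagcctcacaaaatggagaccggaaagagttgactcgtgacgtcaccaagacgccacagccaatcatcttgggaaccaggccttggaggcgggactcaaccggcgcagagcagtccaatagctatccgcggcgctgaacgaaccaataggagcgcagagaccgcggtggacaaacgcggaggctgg
Mcm6: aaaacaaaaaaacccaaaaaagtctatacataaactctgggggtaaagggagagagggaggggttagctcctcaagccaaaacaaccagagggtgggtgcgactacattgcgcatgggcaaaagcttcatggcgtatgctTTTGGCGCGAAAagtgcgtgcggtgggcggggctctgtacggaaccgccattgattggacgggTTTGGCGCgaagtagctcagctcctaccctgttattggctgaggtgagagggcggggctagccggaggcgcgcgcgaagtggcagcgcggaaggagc
There are 2 matches in Mcm5, which overlap and begin 153 bases before the gene start, and 3 in Mcm6, which begin 110 bases before it.

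**Figure D2:**
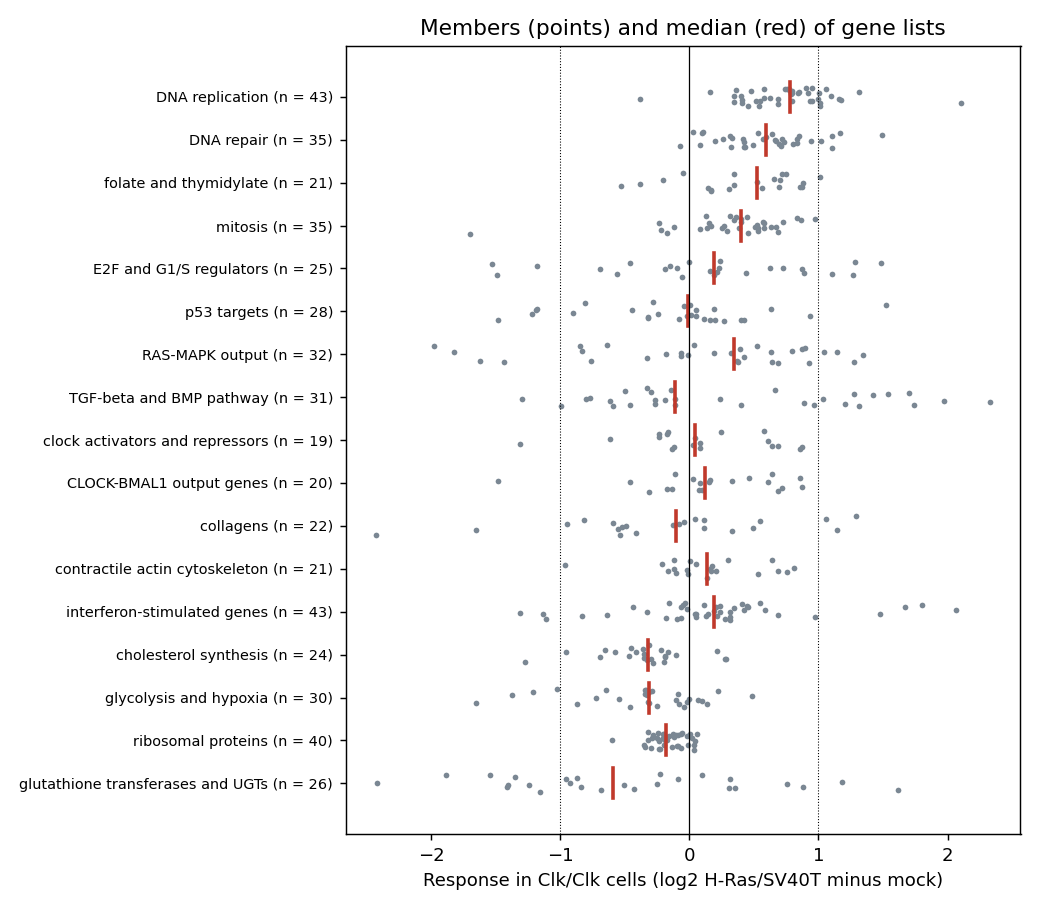
Response (log2 level after H-Ras/SV40T minus mock, horizontal axis) of the measured members of selected gene lists in Clk/Clk cells, with 1 grey point a gene, the list's median as a red line, dotted lines at 2-fold and n the number of measured members. The replication and repair lists lie almost wholly to the right of 0, with medians of 0.78 and 0.59, while cholesterol synthesis and the ribosomal proteins lie mostly to the left, with -0.32 and -0.18.

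Regulators of the G1/S transition went both ways. Of 25, 4 (16%) were at least 2-fold higher and 3 (12%) lower, against 4.2% and 4.61% of all genes, with a median of 0.19. Cyclin E1, Ccne1, was 2.80-fold higher (2.81 and 4.29), its partner kinase Cdk2 2.43-fold, and the repressors of E2F targets E2f7 and E2f8 2.41-fold and 2.15-fold. The lower genes were the CDK inhibitors Cdkn2b (4.05 and 2.52, 2.89-fold lower) and Cdkn2a (5.78 and 4.29, 2.81-fold lower) and Mdm2, the ubiquitin ligase of p53 (7.01 and 5.83, 2.27-fold lower). Among 28 p53 targets, 4 were at least 2-fold lower and 1 higher, and the median was -0.01. Besides Mdm2 the lower ones were Btg2 (2.80-fold), Trp53inp1 (2.33-fold) and the death receptor Fas (2.28-fold), and the higher one was Perp, at least 2.09-fold. Of 13 measured BCL2-family genes 1 was past 2-fold, the death-promoting Bmf, 4.07-fold lower (-0.79 and -2.81).

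Output genes of the RAS-MAPK cascade also split. Of 32 measured genes, 4 (12.5%) were at least 2-fold higher and 4 (12.5%) lower, against 4.2% and 4.61% of all genes. In all 19 were above 0, and the median was 0.34. The immediate early genes Fos and Egr1 were lower, Fos with 0.32 in the mock culture and -1.66 after transfection (3.93-fold) and Egr1 with 4.26 and 2.44 (3.53-fold). Etv1, an ETS factor, was 3.08-fold lower and the cytokine Lif 2.70-fold lower. The higher genes were the MAP kinase phosphatase Dusp4 (-0.26 and 1.08, 2.54-fold), the urokinase receptor Plaur (2.41-fold), the EGF-receptor ligand Hbegf (2.20-fold) and the AP-1 member Fosl1 (2.06-fold). Of 12 RAS genes only Rras2 passed 2-fold, with 1.68 and 2.95 (2.42-fold higher). The RAS-MAPK median was 0.43 in the wild-type pair and -1.56 in the Per2m/m pair, and that difference was not tested.

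The TGF-beta and BMP list had the largest share past 2-fold upward among the gene-group lists examined. Of 31 measured genes, 10 (32.3%) were at least 2-fold higher, against 4.2% of all genes, and 1 was lower, although 16 of 31 were below 0 and the median was -0.11, or 0.20 with the mean over the probes of a gene. The higher members included all 4 Id genes, which encode inhibitors of differentiation and are classical BMP targets: Id4 (1.58 and 3.91, 5.02-fold), Id1 (2.94 and 4.64, 3.25-fold), Id3 (4.42 and 5.63, 2.31-fold) and Id2 (0.86 and 1.89, 2.04-fold). Both inhibitory SMADs were also higher, Smad6 by 3.34-fold (0.21 and 1.95) and Smad7 by 2.90-fold (0.49 and 2.02). Of the ligands, Inhba was 2.67-fold and Tgfb1 2.49-fold higher, while Bmp4 was 2.46-fold lower (-2.27 and -3.57). The activin antagonist Fstl3 was 2.42-fold higher. Only the direction of these transcripts was measured, not the activity of the pathway.

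R-spondins and several secreted WNT antagonists were lower after transfection, although 1 antagonist was higher. Of 33 WNT pathway genes measured, 6 (18.2%) were at least 2-fold higher (5 with dim members at their bound) and 8 (24.2%) lower. The shares over all genes were 4.2% and 4.61%. The median of the list was -0.02 and became 0.10 when dim probes were kept. The R-spondins, which amplify WNT signals, were among the lower genes, Rspo3 at least 6.00-fold, Rspo1 at least 3.97-fold and Rspo2 at least 2.12-fold. The secreted antagonists Sfrp4 (at least 2.35-fold), Sfrp2 (3.09-fold), Dkk2 (2.78-fold) and Sfrp1 (2.21-fold) were lower as well. The antagonist Wif1 went the other way: it was not well above background in the mock culture and was at least 1.77-fold higher, with a response of 3.07. Among ligands, Wnt4 was 4.64-fold higher (-3.99 and -1.77), Wnt11 2.38-fold and Wnt5b 2.24-fold higher, and Wnt16 at least 3.84-fold lower. The receptors Fzd6 and Fzd4 were 2.56-fold and 2.11-fold higher. Of 45 growth factor ligands and receptors, 5 were at least 2-fold higher and 7 lower. Besides Igfbp3, the lower genes included Ptn (6.01 and 2.97, 8.26-fold) and Mdk (3.21 and 0.90, 4.96-fold), which encode the related growth factors pleiotrophin and midkine, Igfbp5 (at least 5.30-fold) and Vegfd (4.03-fold). The FGF receptor Fgfr4 was 4.35-fold higher (-4.06 and -1.94) and Igfbp2 3.80-fold higher (2.36 and 4.29).

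The clock genes differed little between both Clk/Clk cultures. Of 19 measured activators and repressors, 0 were at least 2-fold higher and 1 lower, 11 were above 0, and the median was 0.05, or -0.01 with loess scaling. The lower one was Fbxl21, a ubiquitin ligase of CRY proteins, at -4.32 in the mock culture and not well above background after transfection, so that its bound was only 1.11-fold. The activator Arntl, the gene of BMAL1, had 0.78 and 0.17, a response of -0.61. Among the repressors, Per1 had -0.18, Cry1 0.08 and Cry2 0.05, and Per3 was dim, at least 1.49-fold higher. The nuclear receptors that repress Arntl were higher by less than 2-fold, Nr1d1 by 1.81-fold (-0.95 and -0.10) and Nr1d2 by 1.53-fold (0.65 and 1.26). Of 20 output genes of CLOCK and BMAL1, 14 were above 0 with a median of 0.12, and 1 was past 2-fold, Hlf, 2.80-fold lower (-2.67 and -4.16). The other PAR bZIP factors, Dbp and Tef, had responses of 0.15 and 0.07. A second probe of Per1 gave -1.62, the widest spread between probes among these genes, so its value is uncertain. The output median was 0.10 in wild-type cells, with 1 gene higher and 4 lower, and 1.13 in Per2m/m cells, with 10 higher and 2 lower. These cultures were each sampled once, and the clock time of sampling is not given in the labels.

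The E-box CACGTG, to which CLOCK and BMAL1 bind, was found in 6 of 17 output-gene promoters (35.3%) and 4 of 15 promoters of activators and repressors (26.7%), against 11.1% of measured genes. The promoter of Ciart, a repressor of CLOCK and BMAL1, is shown because it holds 3 copies, in capitals (chr3:95882179-95882478, GRCm38.p6, minus strand, 5′ to 3′).
Ciart: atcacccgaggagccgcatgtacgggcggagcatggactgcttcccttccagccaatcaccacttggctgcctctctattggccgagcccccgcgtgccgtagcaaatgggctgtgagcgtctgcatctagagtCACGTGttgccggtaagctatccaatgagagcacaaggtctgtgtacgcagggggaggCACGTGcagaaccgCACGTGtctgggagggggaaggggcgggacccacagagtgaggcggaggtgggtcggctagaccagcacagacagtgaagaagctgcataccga
Ciart was not well above background in the mock culture and had a level of -3.69 after transfection, at least 1.84-fold higher.

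Secreted inflammatory factors differed in both directions. Of 29 measured, 6 (20.7%) were at least 2-fold higher and 8 (27.6%) lower, against 4.2% and 4.61% of all genes, with a median of -0.37 that became 0.16 when dim probes were kept. Of the chemokines, Ccl5 was 5.20-fold higher (2.45 and 4.83) and Ccl8 2.78-fold higher (0.95 and 2.43), while Ccl9 was 16.3-fold, Cxcl1 2.76-fold (4.07 and 2.60), Cxcl10 2.43-fold (3.89 and 2.61) and Cx3cl1 2.30-fold lower. Cxcl5 had levels of 6.12 and 4.80, a response of -1.32. All 3 CXC chemokines past 2-fold were thus lower. Lipocalin-2, Lcn2, was 3.59-fold lower and Nos2, the inducible nitric oxide synthase, 2.12-fold lower. The macrophage growth factor Csf1 was 2.14-fold higher (4.90 and 6.00), Tnfsf11, the gene of RANKL, at least 2.30-fold, and the stromelysin Mmp3 2.40-fold.

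Interferon-stimulated genes were mostly close to 0, with a median of 0.19 and 28 of 43 above 0. The 4 genes at least 2-fold higher were Irf7, the transcription factor that amplifies type I interferon (1.09 and 3.16, 4.18-fold), Ifi44 (1.48 and 3.29, 3.49-fold), Oasl1 (2.29 and 3.96, 3.18-fold) and Oas3 (2.78-fold). The 3 lower ones were Ifi47 (2.48-fold), Cmpk2 (2.16-fold) and Mx1 (at least 2.09-fold). Of 17 genes of MHC class I presentation, 2 were at least 2-fold higher, the immunoproteasome subunit Psmb8 (2.32-fold) and H2-D1 (5.39 and 6.40, 2.01-fold), and 0 lower. The interferon list had a median of -0.97 in the wild-type pair and 0.89 in the Per2m/m pair.

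Single matrix genes differed in both directions, and their lists were centred near 0. Of 22 collagens, 3 were at least 2-fold higher and 2 lower, with a median of -0.10. Col4a6, a basement membrane collagen, was 5.36-fold lower (0.25 and -2.17) and the fibrillar Col3a1 3.14-fold lower (4.86 and 3.20), while Col7a1, which forms anchoring fibrils, was 2.45-fold, Col18a1 2.21-fold and Col8a1 2.08-fold higher. Of 43 other matrix genes, 5 were higher and 5 lower. The proteoglycan Ogn was 9.18-fold lower (1.35 and -1.85), Efemp1 3.21-fold lower, and Loxl2 and Vcan 2.56-fold and 2.54-fold lower. Ccn2, connective tissue growth factor, was among the bright genes and was 2.93-fold higher (7.32 and 8.87), with Loxl3 2.80-fold and Mfap5 2.34-fold higher.

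Of 29 matrix proteases and inhibitors, 6 (20.7%) were at least 2-fold higher and 6 (20.7%) lower, against 4.2% and 4.61% of all genes. Besides Mmp13, Mmp3 and Plaur, the gelatinase Mmp9 was 2.12-fold higher (0.13 and 1.21). The plasminogen activator Plat was 3.31-fold lower (1.16 and -0.56). The aggrecanases Adamts4 and Adamts5 were 2.36-fold and 2.12-fold lower, Adamts2 2.38-fold and Adamts9 2.06-fold lower. Of 21 genes of the contractile actin cytoskeleton 0 passed 2-fold in either direction, with a median of 0.14 and a range of -0.96 to 0.81, while the same list had medians of -0.37 in the wild-type pair and -3.07 in the Per2m/m pair. Of 25 integrins and cadherins, 2 were at least 2-fold higher, among them Itgb7 (-2.88 and -0.75, 4.37-fold), and 3 lower, among them Itga11 (2.19-fold).

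HOX genes, which give cells their position along the body axis, were mostly lower where they differed. Of 31 measured HOX genes, 6 (19.4%) were at least 2-fold lower and 1 (3.23%) higher, against 4.61% and 4.2% of all genes, with a median of -0.12. Hoxb9 was 7.32-fold lower (2.16 and -0.71) and its neighbour Hoxb8 5.63-fold lower (1.28 and -1.22). Hoxd4 (3.18-fold), Hoxa10 (2.90-fold), Hoxc10 (2.68-fold) and Hoxb13 (2.15-fold) were the others, and Hoxc13 was 2.90-fold higher. Of 42 other mesenchymal transcription factors, 4 (9.52%) were higher (3 with dim members at their bound) and 3 (7.14%) lower. Six2, dim in the mock culture, had the highest response, 2.73, with a bound of at least 1.41-fold. Lhx9 was 5.84-fold higher (-1.74 and 0.80), Prrx2 2.65-fold (3.27 and 4.68) and Tbx2 2.52-fold, and Wt1 was 4.75-fold (0.70 and -1.55) and Gata6 2.29-fold lower. Of 24 imprinted genes, H19 and Peg3 (2.11-fold) were lower and Slc22a18 2.20-fold higher. Igf2, the neighbour of H19, had a response of 0.49 (-1.23 and -0.75), so the pair did not differ in the same direction.

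Genes of sterol and energy metabolism were slightly lower as groups. Of 24 genes of cholesterol synthesis 21 had a response below 0, with a median of -0.32, and 1 was past 2-fold, the sterol reductase Tm7sf2, 2.41-fold lower (1.26 and -0.02). Hmgcs1, an early enzyme of the pathway, had 4.79 and 3.84 (1.94-fold lower), and Fdps 4.98 and 4.30. The same genes had medians of 0.80 in the wild-type pair and 1.23 in the Per2m/m pair, with 9 and 13 members at least 2-fold higher. Of 30 genes of glycolysis and hypoxia, 25 were below 0 with a median of -0.31. Of these genes 4 (13.3%) were at least 2-fold lower, against 4.61% of all genes. They were Pdk1, which shuts pyruvate out of the mitochondrion (0.32 and -1.33, 3.14-fold), Bnip3 (5.12 and 3.75, 2.59-fold), Ndrg1 (2.63 and 1.42, 2.31-fold) and the prolyl hydroxylase Egln3 (2.04-fold). Ribosomal protein genes had responses from -0.60 to 0.06 and a median of -0.18, with 34 of 40 below 0 and 0 past 2-fold, but with loess scaling the median was -0.02. The 38 genes of the respiratory chain had a median of -0.11 and 0 past 2-fold. In wild-type cells the ribosomal and respiratory medians were 0.25 and 0.36.

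The sterol-type motif, searched as TCACNCCAC on both strands, was found in 1 of 16 promoters of the cholesterol list (6.25%) and in 1.45% of measured genes. That promoter is of Hmgcs1 (chr13:119690101-119690400, GRCm38.p6, plus strand), shown 5′ to 3′ with the match in capitals.
Hmgcs1: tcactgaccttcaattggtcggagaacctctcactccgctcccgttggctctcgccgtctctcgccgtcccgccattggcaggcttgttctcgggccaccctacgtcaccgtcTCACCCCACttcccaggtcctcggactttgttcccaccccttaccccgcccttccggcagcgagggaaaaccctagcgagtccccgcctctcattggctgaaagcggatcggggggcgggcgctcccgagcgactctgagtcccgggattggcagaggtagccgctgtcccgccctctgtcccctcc
The match begins 137 bases before the gene start.

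Detoxification genes of some lists were lower more often than higher, while aldehyde dehydrogenases and NRF2 targets went both ways. Of 26 glutathione transferases and UDP-glucuronosyltransferases, 8 (30.8%) were at least 2-fold lower and 2 higher, against 4.61% and 4.2% of all genes, with a median of -0.59, or -0.47 with dim members at their bound. The mu-class genes Gstm1 (3.25 and 1.37, 3.69-fold), Gstm4 (2.55-fold) and Gstm3 (2.36-fold) were lower, and Gstm7 at least 1.64-fold, as were Gstt1 (3.30 and 1.76, 2.92-fold), Mgst2 (2.66-fold) and Gsta4 (2.23-fold). Members of the mu class are similar in sequence, so their probes may share signal and their values are uncertain. Gstk1 was 3.07-fold and Gsto2 2.27-fold higher. Of 9 aryl hydrocarbon receptor targets 2 were lower, Cyp1b1 by 2.95-fold (3.88 and 2.32) and Ugt1a6a with a bound of 1.29-fold. The NRF2 targets were centred at 0.06, with 2 higher and 3 lower of 32. Of 18 aldehyde dehydrogenases, Aldh1l1 (2.63-fold) and Aldh1a2 (2.08-fold) were higher, and Aldh1a7 (-1.69 and -4.43, 6.67-fold) and Aldh6a1 (2.21-fold) lower. Of 14 drug efflux transporters, Abcc3 (0.50 and -0.82) and Abca1 (-1.09 and -2.33) were lower (14.3%) and 0 higher.

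The remaining lists held few genes past 2-fold. Of 13 genes of fatty acid synthesis 2 were lower, Acss2 (2.84-fold) and Scd2 (5.79 and 4.68, 2.17-fold). Of 33 genes of the ATF4 and unfolded protein response, the cystine transporter Slc7a11 was 2.44-fold higher and the hormone Fgf21 2.64-fold lower, and the median was 0.18. The 18 heat shock genes had a median of 0.17 with 0 past 2-fold. Of 23 chromatin genes 1 was past 2-fold, the DNA methyltransferase Dnmt3a (1.36 and -0.20, 2.94-fold lower), while Dnmt1 had a response of 0.79. Over the 38 gene-group lists the medians lay between -0.76 and 0.78, and 27 of them were within 0.2 of 0.

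Markers of cell types were read to check the label. All 15 fibroblast markers were well above background on both Clk/Clk arrays, with a median response of -0.13. Vim stood at 7.14 and 7.09, Thy1 at 7.78 and 7.61, Dcn at 7.63 and 7.29, and Pdgfra at 4.36 and 4.33. Of the 15, 5 had a response above 0 and 10 below, with 1 at least 2-fold higher and 1 lower. These were Lum, with a response of 1.03, and Col3a1, with -1.65, while Col1a2 and Fstl1 had -0.59 each. Among the other types, 10 of 18 macrophage markers were well above background in the mock culture and 9 after transfection, and the pan-leukocyte marker Ptprc stood at -4.23 in the mock culture and was not well above background after transfection. All 3 measured mesothelial markers were at least 2-fold lower, Wt1 by 4.75-fold, Msln by 2.44-fold (2.55 and 1.26) and Krt19 by 2.38-fold. Of 6 keratinocyte markers 3 were at least 2-fold higher, Sprr1a, Lor (-3.72 and -1.61, 4.34-fold) and Ivl (at least 2.88-fold, with a second probe at -1.02), while the basal keratins Krt5 and Krt14 had responses of -0.14 and -0.30. In these bulk cultures fewer cells of a type and less RNA per cell cannot be told apart.

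Transcripts typical of liver, of a list chosen after the values had been seen, were found on the transfected Clk/Clk array. Of 54 genes in the list, 39 were well above background on that array, against 18 on the Clk/Clk mock array and 16 to 23 on the other 4 arrays. Of the 39, 16 were well above background on both Clk/Clk arrays; the others were measured only through the transfected array, where they are high, so no count over the list is read as a result. Albumin, Alb, was not well above background in the mock culture and had a level of -1.62 after transfection, at least 7.99-fold higher. The fatty acid binding protein Fabp1 was at least 9.09-fold, the fetuin Ahsg at least 10.8-fold, the bikunin precursor Ambp at least 6.39-fold and the fibrinogen chains Fgb and Fgg at least 3.72-fold and 2.86-fold higher. The largest bounds were of the alpha-1-antitrypsin genes Serpina1a (at least 41.2-fold), Serpina1c (a bound of 5.13 on the log2 scale) and Serpina1e (at least 25.8-fold) and of the major urinary protein genes Mup19 (at least 42.8-fold), Mup17 (at least 16.1-fold) and Mup4 (at least 15.7-fold). Apoc1, an apolipoprotein, was 13.8-fold higher (-3.73 and 0.06) and transferrin, Trf, 10.8-fold higher (-3.04 and 0.40). Not all members were higher: 33 of the 39 had a response above 0 and 6 below, with 0 at least 2-fold lower. Those below 0 included Ass1 (5.90 and 4.95), Fah (1.99 and 1.12), Rbp4 (-0.91 and -1.32) and Hp (-0.78 and -0.93). Apoe was nearly the same in both cultures, at 0.26 and 0.28. The Mup and Serpina1 genes are nearly identical copies, so their probes may read one another's transcripts and the single values are uncertain.

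**Figure D3:**
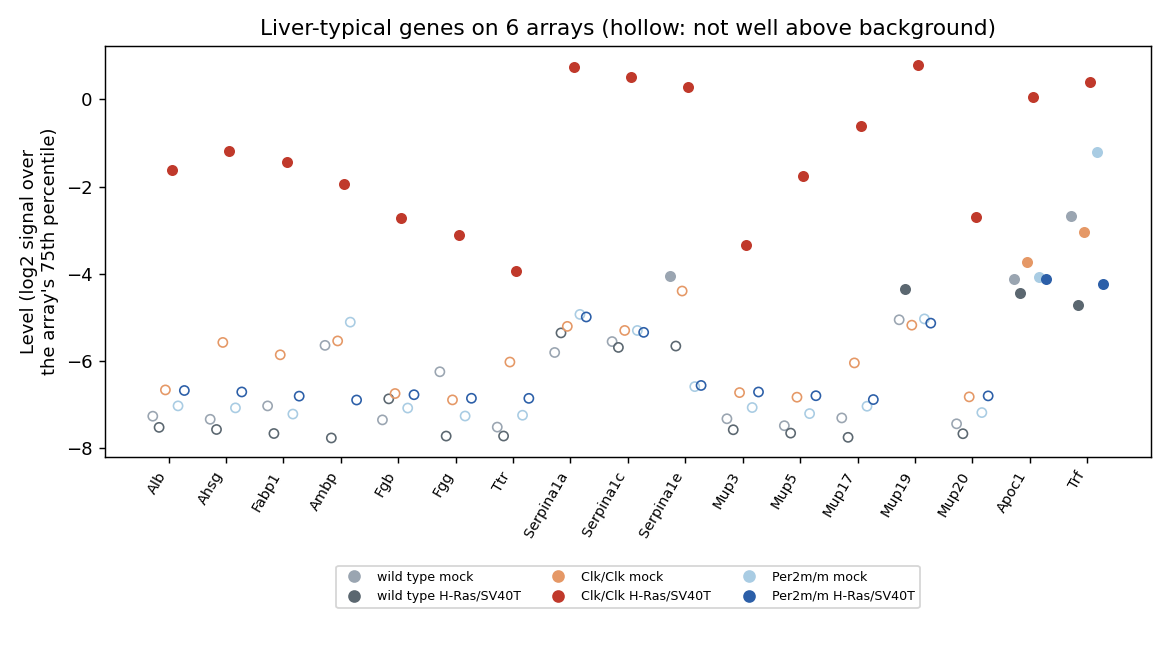
Level (log2 signal over the array's 75th percentile, vertical axis) of 17 selected genes typical of liver on all 6 arrays, coloured by genotype and transfection, with filled points well above background and hollow points not. On the Clk/Clk H-Ras/SV40T array each gene is well above background, with Alb at -1.62 and Serpina1a at 0.74, while most values of the other arrays are hollow.

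Some of the liver-typical genes were seen on a single array of the study. Of 134 genes well above background on the transfected Clk/Clk array and on none of the other 5, 17 were in the liver list, at levels from -4.22 to 0.74 with a median of -2.35. The list was drawn up with these values in view, so this overlap is a description of how it was chosen. For comparison, 124 genes were well above background only on the Clk/Clk mock array, among them Ptprr, Adamts15 and Vstm2a. Gdpd2, Serpina3n, Cyp2f2 and Steap4 were well above background on both Clk/Clk arrays and on none of the other 4. The source of the liver-typical transcripts and their part in the other responses was not tested. Without the lists chosen after the values had been seen, 597 genes were at least 2-fold higher and 686 lower.

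The same genes were then read in the other genotypes, whose pairs share no array with the Clk/Clk pair. The Clk/Clk responses had the smallest spread, with an SD of 0.67, against 1.01 in the wild-type pair and 2.01 in the Per2m/m pair. Past 2-fold there were 1317 genes (8.82%) in Clk/Clk cells. In the wild-type pair 7.17% of measured genes were higher by that measure and 17.9% in either direction, and in the Per2m/m pair 18.5% and 39.1%. These shares and SDs cover only genes and probes that were measured in the Clk/Clk pair. Genes seen only in the other genotypes are left out, so the pairs are not compared like for like. Across 12306 genes well above background on all 6 arrays, the levels of both Clk/Clk arrays correlated with r = 0.986, against 0.967 for the wild-type pair and 0.875 for the Per2m/m pair. This is a description across genes, which are not independent replicates, and the arrays share 1 slide. With 1 array per side, none of these differences between genotypes was tested.

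Of 14051 genes measured in all 3 pairs, 447 were at least 2-fold higher and 512 lower in Clk/Clk cells. Of the 447, 194 were at least 2-fold lower in wild-type cells and 49 higher, and 252 were lower in Per2m/m cells and 76 higher. Of the 512, 136 were also lower in wild-type cells and 77 higher, and 217 were also lower in Per2m/m cells and 155 higher. The base for such overlaps is the count over all measured genes of each pair. In the wild-type pair 1549 of 14440 genes were lower and 1036 higher, and in the Per2m/m pair 2923 of 14166 and 2621. No expected overlap was computed, here or for the counts across all 3 genotypes below, so these overlaps are a description. In all 3 genotypes 17 genes were at least 2-fold higher and 93 lower. Itgb7, a subunit of leukocyte integrins, was among the higher ones, with responses of 2.13 in Clk/Clk, 3.65 in the wild-type pair and 8.10 in the Per2m/m pair. Spink2, a protease inhibitor, had 1.77, 1.05 and 1.98 in the same order. Tmem74, Gm13043 and Dynap had 2.24, 1.97 and 1.88 in Clk/Clk cells, where each was dim in the mock culture. Of the lower ones, H19 had -3.66 in Clk/Clk, -6.52 in the wild-type pair and -2.17 in the Per2m/m pair, and Aldh1a7 -2.74, -4.54 and -1.92. Serpina3g and Rspo3 had -3.41 and -3.16 in Clk/Clk cells, and Tshz2 was at least 2.05-fold lower there.

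At 2-fold in all 3 genotypes, genes higher in Clk/Clk cells were mostly opposite to both others, 152 against 17 in the same direction. Genes lower in Clk/Clk cells were mostly in the same direction, 93 against 37 opposite. Among genes that were also measured in the Clk/Clk pair, both other pairs held more lower than higher genes at 2-fold. The wild-type pair had 1549 lower and 1036 higher of 14440, and the Per2m/m pair 2923 and 2621 of 14166. In all, 152 genes were higher by 2-fold or more in Clk/Clk cells and lower by 2-fold or more in both other genotypes, and 37 were lower in Clk/Clk and higher in both others. These counts use the responses and not the bounds. Well above background on both Clk/Clk arrays were 118 of the 152 and 32 of the 37. The rule that chose these genes sets transfected against mock levels, so it also favours certain mock levels. Their medians are therefore a description of the choice. The 152 had a median of -2.31 in the Clk/Clk mock culture, against -0.40 in wild-type and -0.33 in Per2m/m mock cultures. After transfection their medians were -0.68 in Clk/Clk, -3.10 in the wild-type pair and -6.01 in the Per2m/m pair. The lowest level that counted as above background on the Per2m/m transfected array was -4.59. Many of the 152 were therefore not well above background there, and their Per2m/m responses are not measured folds. The 37 had a median of -0.05 in the Clk/Clk mock culture, against -2.02 and -1.79, and of -1.58 after transfection, against 0.14 and 1.58. Gas1, a gene of growth arrest, stood at 1.91 and -0.16 in Clk/Clk cells, at -1.89 and 1.27 in wild-type cells and at -2.35 and 2.94 in Per2m/m cells. Epor, the erythropoietin receptor, stood at -0.98 and -3.06, at -3.47 and -1.51, and at -3.29 and -0.55 in the same order. A further 183 genes were past 2-fold only in Clk/Clk cells.

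**Figure D4:**
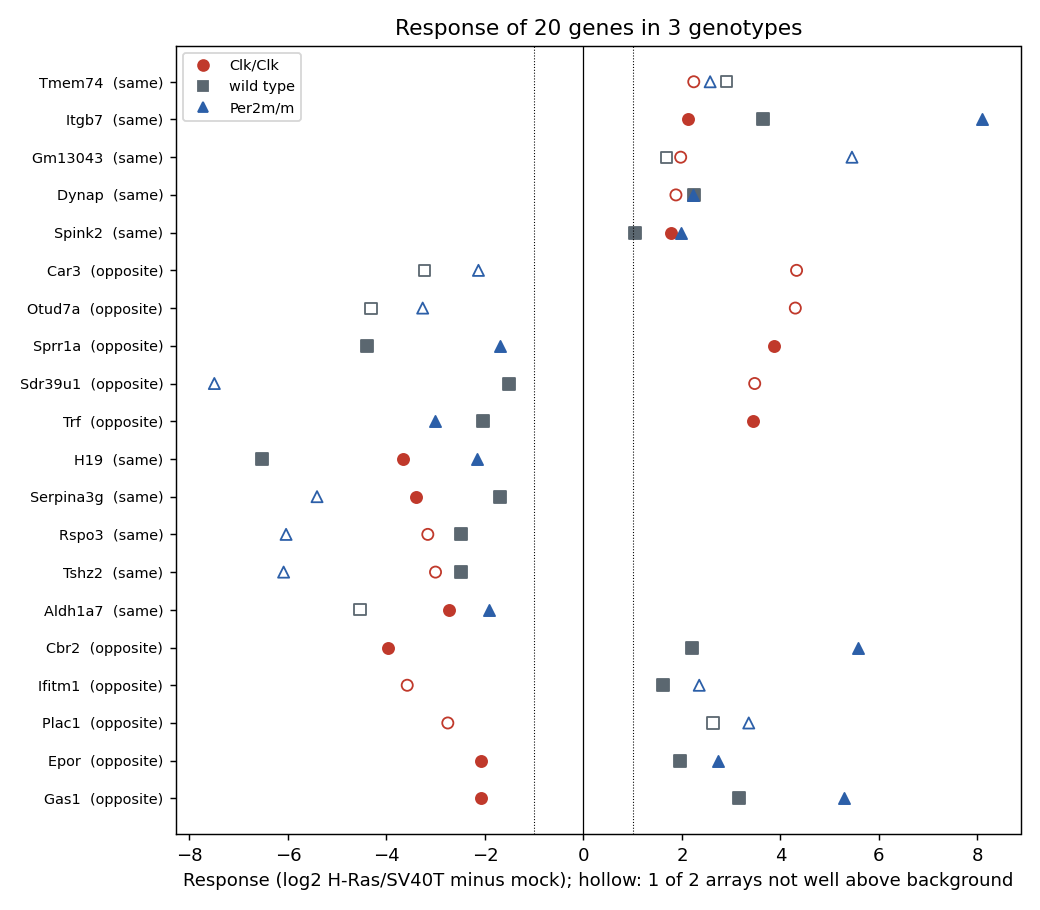
Response (log2 level after H-Ras/SV40T minus mock, horizontal axis) of 20 genes in Clk/Clk (circles), wild-type (squares) and Per2m/m cells (triangles), chosen as the genes with the largest Clk/Clk response among those in the same direction in all 3 genotypes or opposite to both others. Hollow symbols mark pairs in which 1 of 2 arrays was not well above background; Gas1 lies at -2.08 in Clk/Clk and at 3.16 and 5.29 in the other genotypes.

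Position on the genome was read from the coordinates in the files (mm9). Median responses by autosome lay between -0.20 on chromosome 12, where 31.4% of 512 genes were above 0, and 0.13 on chromosomes 7 and 10, where 62.3% and 61.4% were. Chromosome 12 had 11 genes at least 2-fold higher and 37 lower, and chromosome 7 had 67 higher and 40 lower. In wild-type cells the medians of chromosomes 12 and 7 were 0.02 and -0.22, and in Per2m/m cells 0.15 and 0.04.

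**Figure D5:**
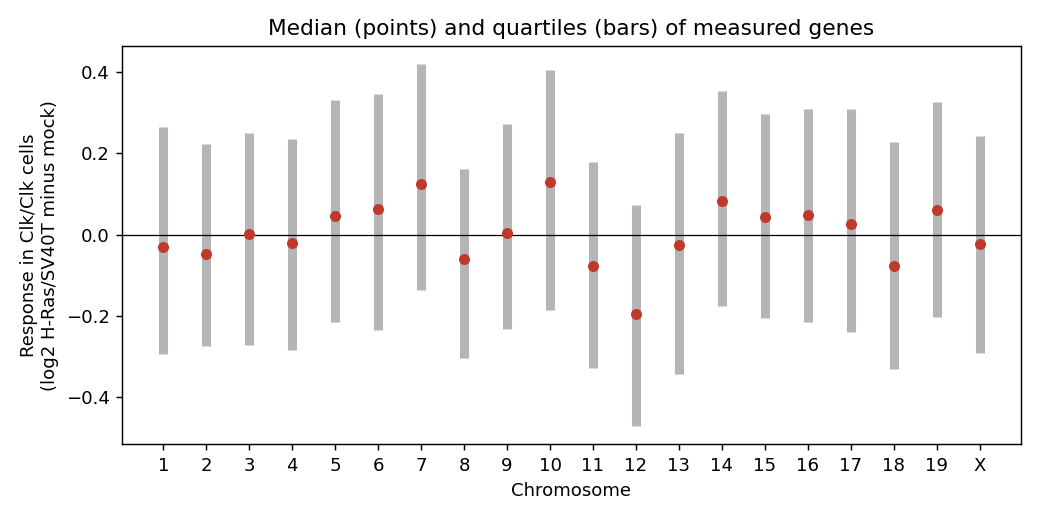
Response in Clk/Clk cells (log2 level after H-Ras/SV40T minus mock, vertical axis) by chromosome, as the median (red points) and the range between quartiles (grey bars) of measured genes. Chromosome 12 has the lowest median, -0.20, and its upper quartile is 0.07; chromosomes 7 and 10 have the highest, 0.13.

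Neighbouring genes past 2-fold in 1 direction formed 3 runs of more than 3 genes. The longest was of 8 Mup genes on chromosome 4 between 59969824 and 61808925, all higher, with Mup2 as the member well above background on both arrays (-2.96 and -1.05, 3.76-fold) and Mup5, Mup20, Mup3 and Mup21 at least 7.28-fold, 3.79-fold, 2.43-fold and 2.25-fold. A run on chromosome 12 between 105002930 and 105185231 held 4 Serpina1 genes, of which Serpina1d was at least 2.07-fold higher. On chromosome 8 between 95544137 and 96493287, 4 carboxylesterase genes and Gnao1, a G protein subunit, were lower. Ces1g went from -0.93 to -2.39 (2.75-fold) and Gnao1 from -1.74 to -3.55 (3.52-fold). Ces1a, Ces1d and Ces1f were not well above background after transfection, at least 2.56-fold, 2.36-fold and 2.46-fold lower. Members of these runs are copies with similar sequence, apart from Gnao1, so the number of genes in a run overstates the number of separate measurements.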

How the data were processed

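Total RNA of Clk/Clk, wild-type and Per2m/m MEFs was labelled with Cy3 and hybridised to 6 single-colour arrays, 1 per group, grouped by their titles and labels. The deposited scanner files hold a fluorescence intensity per spot, which Feature Extraction 10.7.1.1 wrote, per the file headers, after spatial and multiplicative detrending and with surrogate values near background; the submitters' processing notes name version 9.5.1.1. The authors' deposited table of the series holds intensity that is the same sorted set of values on every array, so it was treated as quantile-normalized and used as an alternative.

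Control spots and outlier spots (93 on the Clk/Clk mock and 99 on the transfected array) were left out, and 0 spots were saturated. Spots of a probe were averaged, and log2 of the processed signal was taken minus the array's 75th percentile. Of 55681 probes, 26587 were named by accession, 4119 by symbol and 551 by synonym through RefSeq names of GRCm38.p6, 141 matched several genes and 24283 stayed unnamed. A gene was represented by its brightest probe among those measured in the Clk/Clk pair. The same probe was read in the other genotypes, so genes measured only there are left out. For a gene well above background on 1 array, the bound sets the bright level against the lowest level above background, or the dim probe's own if higher (-4.62 on the mock and -4.47 on the transfected array). Genes named are the altered genes and the gene of the title, the 15 highest and 15 lowest, the 10 largest bounds in each direction, up to 4 leading members of each list or those needed to read its count, the 5 leading genes of each pattern across genotypes, and the members of the 3 longest runs. Some genes that this rule names are not reported here. The members and lists were chosen with earlier results of these data known. With 1 array per group there is no test and no p-value. The steps were tested on simulated data that held spot noise only, so differences between cultures were not covered. Alternatives covered scaling, background correction, the filter on dim probes, the probe of a gene and the fold that counts. Python 3.11.15, pandas 2.3.3, numpy 2.4.6, statsmodels 0.14.6, matplotlib 3.10.9, R 4.3.3 and limma 3.58.1 (for normexp) were used.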

Additional observations from a re-analysis of the deposited data

Results flagged for a closer look

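These results stood out because the Clk/Clk response was at least 2-fold and opposite in sign to the responses of both other genotypes. With 1 array per side the difference was not tested for any of them. Higher in Clk/Clk cells were Car3, a carbonic anhydrase, with a response of 4.33 (-3.23 in the wild-type pair and -2.13 in the Per2m/m pair), Otud7a with 4.30 (-4.31 and -3.26) and Sdr39u1 with 3.48 (-1.51 and -7.49). All of them were dim in the Clk/Clk mock culture, so that only bounds of 2.28, 2.81 and 1.42 on the log2 scale hold. Car3 was also dim after transfection in the other genotypes, with bounds of -1.36 in the wild-type pair and -0.06 in the Per2m/m pair. At its bound Car3 was thus not 2-fold lower in the Per2m/m pair. Otud7a had bounds of -3.95 and -1.06 in the same order, and Sdr39u1 had a bound of -5.80 in the Per2m/m pair. Sprr1a had 3.86 (-4.39 and -1.69) and Trf 3.44 (-2.04 and -3.02), both well above background on all 6 arrays.

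Lower in Clk/Clk cells were Cbr2 with -3.97 (2.21 and 5.58), Ifitm1 with -3.58 (1.62 and 2.35), the placental gene Plac1 with -2.75 (2.63 and 3.36), Epor with -2.08 (1.97 and 2.74) and Gas1 with -2.08 (3.16 and 5.29). Plac1 was dim in the transfected Clk/Clk culture, with a bound of at least 1.49-fold. It was dim in both other mock cultures, with bounds of 1.35-fold in the wild-type pair and 4.76-fold in the Per2m/m pair. Ifitm1 was not well above background in the transfected Clk/Clk culture (at least 11.4-fold lower) or the Per2m/m mock culture (at least 4.65-fold higher). The median of the cholesterol synthesis genes, -0.32 in Clk/Clk cells against 0.80 and 1.23, also differed in sign, and that difference was not tested either.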

How the results depend on the processing

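No paired analysis was possible because each group holds 1 array and the labels give no replicate numbers. Of 628 higher and 689 lower genes, the counts became 217 and 248 with normexp at an offset of 50, 373 and 428 with probes above background on both arrays, and 1358 and 1180 with no filter on dim probes. They were 248 and 265 at 3-fold, and 159 and 147 at 4-fold. Scaling to the median (618 and 703), quantile normalization (713 and 783), loess (604 and 729), the authors' deposited table (716 and 786) and the mean over probes (658 and 687) kept both counts within 1.5 times. The share of higher genes lay between 45.3% and 53.5%, and the unfiltered values moved the median of all genes to 0.11. These results changed sign: Ivl to -1.02, the keratinocyte median to -0.028 and the adipocyte median to -1.60 with probes above background on both arrays (which leaves fewer members), and the medians of secreted inflammatory factors to 0.16 and of mesothelial markers to 0.14 with no filter. No other named gene past 2-fold, and no other list median of at least 0.2 in size, changed sign under these alternatives. A further 15 list medians under 0.2 in size changed sign under at least 1 alternative, reaching values from -0.074 to 0.35, so their sign is not settled; among them were WNT genes (0.10), macrophage markers (0.16) and aldehyde dehydrogenases (0.10) with no filter, and matrix proteases (-0.074) with probes above background on both arrays. The folds of single genes depend on the background correction. Of 170 leading genes past 2-fold, among 249 recomputed under each alternative, 164 were closer to 0 with normexp and 125 still past 2-fold, and the median response was 0.70 of its size. Sprr1a became 2.26, Acsbg1 2.91, Alb 1.43 and Gdpd2 -3.20. With the mean over its probes Acsbg1 had 1.87. For 47 of 49 such genes dim on 1 array, the normexp response was smaller than the bound. The cause of the changes under normexp and without the filter was not tested. Signal over background limits the dim genes most: 256 higher and 262 lower genes were above background on 1 array only.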

Other observations

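Probes without a gene name were not part of the lists. Of 10807 measured unnamed probes on the Clk/Clk arrays, 460 were higher by 2-fold or more and 610 lower, 9.90% together, with a median response of -0.08. Of these, 6899 were probes for long intergenic non-coding RNAs, with 326 higher and 441 lower (11.1%). Named genes gave 8.82%.

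Cornified envelope genes, a list chosen after the values had been seen, were also read as a group. Of 15 measured, 13 of them on both arrays, 6 were higher by 2-fold or more in the transfected Clk/Clk culture and 1 was lower, with a median of 0.33. The shares over all genes were 4.2% and 4.61%, and since the values chose the list its count is a description only. Sprr2h was at least 18.5-fold higher, and Lce1f was the lower one (2.27 and 0.52, 3.36-fold). The same list had medians of -3.09 in the wild-type pair and -5.91 in the Per2m/m pair. Of 5 lung secretory genes measured, Cbr2 and Cyp2f2 were lower, while the club cell gene Scgb1a1 had a response of 0.16 and the surfactant gene Sftpd -0.05.

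Other markers held few measured members. S100b, a glial marker also made by other cells, was 4.79-fold higher (0.91 and 3.17), and Tubb3 3.53-fold lower (1.71 and -0.11). Of 5 adipocyte markers measured, 2 were past 2-fold in each direction, with a median of 0.39. Lpl (3.85 and 2.07, 3.43-fold) and Fabp4 (3.04-fold) were lower, while Retn and Cebpa, both dim in the mock culture, were at least 1.44-fold and 1.69-fold higher. Of 8 cartilage, bone and tendon markers measured, 4 were above 0, the median was 0.11 and 0 were at least 2-fold higher. Spp1 (3.78 and 2.26, 2.86-fold) and the tendon factor Mkx (3.39-fold) were lower.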
